A study of Homo sapiens with 12 samples.

Results

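The comparison set 2 stable human cell lines against each other before their transgene was switched on. It used 6 of the 12 arrays of the series. The 3 arrays titled Ero1-C104A/C131A non-induced (the mutant line) were compared with the 3 titled Ero1-WT non-induced (the WT line), and every probe set was included. Both lines were HEK 293 Flp-In T-REx cells with a stably integrated, doxycycline-inducible Ero1alpha construct, either wild type or carrying C104A/C131A, and both grew in medium with hygromycin B and blasticidin. Neither received doxycycline, so the comparison gives the state from which each line entered induction. The other 6 arrays, 3 of each line after 24 h with doxycycline, gave a second reading of the line difference, with the transgenes switched on. They also entered the fit that estimated each gene's spread, and so bear on every p-value. Whether each line is 1 clone or a pool of clones is not given in the sources used here, and the parental line was not analysed here.

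HEK 293 is a line of human embryonic kidney cells transformed with adenovirus DNA, known for an abnormal chromosome set and for RNA of kidney, adrenal and neuronal character. In Flp-In T-REx derivatives a recombinase places the transgene at a single prepared site, and a Tet repressor, kept by blasticidin selection, holds its promoter closed until doxycycline is added. Ero1alpha, encoded by ERO1A, is an oxidase of the endoplasmic reticulum that passes disulfide bonds to protein disulfide isomerase and makes hydrogen peroxide. The C104A/C131A form lacks a pair of cysteines that restrain the enzyme, so it is used as a deregulated, more active oxidase.

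Levels below are log2 RMA values, a scale on which a difference of 1 is a doubling. Differences are mutant minus WT. A gene was called when its limma p-value, adjusted by Benjamini-Hochberg over 18404 genes, was below 0.05. By that rule 3934 genes were called, 21.4% of those tested, with 1996 higher (10.8%) and 1938 lower (10.5%) in the mutant line. The median difference over all genes was -0.01. Of 11154 genes placed in chromosome order with a mean level above the median of all probe sets, 30.3% were called. The 21.4% also counts dimmer genes, and how far the called share of a gene list follows from its levels was not tested. The 3 levels of one line lay entirely above or below the 3 of the other for 6887 genes, 37.4% of all. Most called differences were small. Their median size was 0.34 on the log2 scale, and the smallest was 0.14. At least 1.5-fold differences were found for 332 called genes above and 305 below WT, at least 2-fold for 83 and 75, at least 4-fold for 15 and 8, and at least 8-fold for 2 and 3. Array medians lay between 6.36 and 6.43, and the median standard error of a difference was 0.08. One WT array, labelled A, received a weight of 0.314 when limma estimated array weights, against 1.04 and 4.44 for the other WT arrays. Without that array 3803 genes were called. The labels call the replicates biological and say no more, so p-values measure only the spread between these arrays, and the number of arrays limits the precision.

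**Figure D1:**
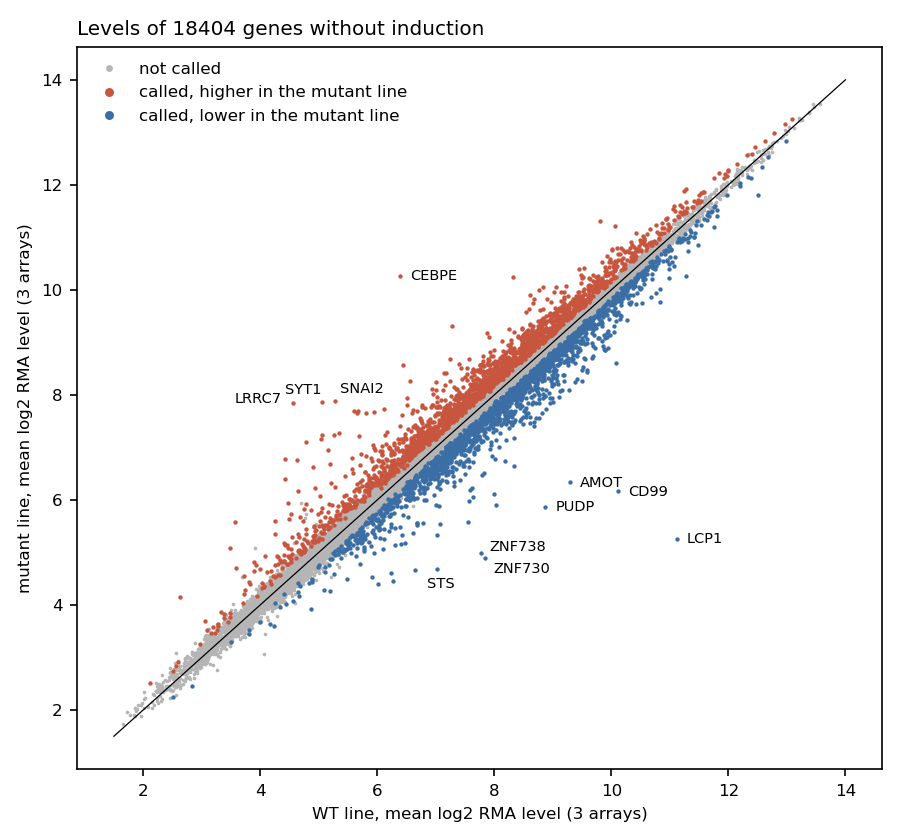
Mean log2 RMA level of each of 18404 genes in the mutant line (vertical axis, 3 arrays) against the WT line (horizontal axis, 3 arrays), both uninduced; red points were called higher in the mutant line, blue points lower, grey points were not called, and the line marks equal levels. Most genes lie close to the line, while LCP1, CD99, PUDP and AMOT lie far below it and CEBPE and LRRC7 far above.

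ERO1A, the gene of the transgene and of the cells' own enzyme, was already unequal before induction. Its levels were 10.42, 10.62 and 10.60 on the WT arrays and 10.15, 10.05 and 10.14 on the mutant arrays. The groups did not overlap, and the mutant line read lower by 0.43 ± 0.06 (SE), a level 0.740 times that of WT (adjusted p = 0.000454). Whether its probes read transgene RNA beside the RNA of the cells' own gene is not known here, and which of them differed was not tested. ERO1B, the second human Ero1 gene, had overlapping levels and a difference of 0.13 (adjusted p = 0.449).

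Among transcriptional regulators the mutant line carried more RNA of CEBPE, SNAI2 and ID3. CEBPE encodes C/EBPε, a factor of late granulocyte maturation. It read 6.56, 6.42 and 6.20 on the WT arrays and 10.30, 10.33 and 10.16 on the mutant arrays, a 14.7-fold difference (95% interval 12.5 to 17.1, adjusted p = 1.05e-09) and the largest increase in the comparison. Of its measured relatives CEBPA, CEBPB, CEBPD, CEBPG and CEBPZ none was called, and their differences lay between -0.11 and 0.13. On chromosome 14 the neighbour SLC7A8, an amino acid transporter gene, was higher by 0.51, while C14orf119 on the other side differed by 0.25 and was not called (adjusted p = 0.0525). SNAI2 encodes Slug, a zinc-finger repressor of epithelial genes. Its levels were 5.33, 5.17 and 5.36 in WT and 7.82, 7.88 and 7.95 in the mutant line, 6.05-fold apart (4.64 to 7.89, adjusted p = 1.56e-06). SNAI1, its close relative, was 1.5-fold higher, and SNAI3 was not called. ID3, an inhibitor of basic helix-loop-helix factors and a classic BMP target, read 7.12, 7.38 and 7.33 against 9.25, 9.39 and 9.31, a 4.11-fold difference (3.67 to 4.60). Of the rest of that family ID1 was 2.28-fold and ID2 1.46-fold higher, and ID4 was lower at 0.886 times the WT level. E2F2, a cell-cycle factor gene that lies beside ID3, was higher by 0.86.

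The promoters of the genes with the largest difference in each direction are shown to compare their content of CG dinucleotides, the letters at which vertebrate DNA is methylated. Each stretch runs from 250 bases before to 50 after the RefSeq start (GRCh38.p14), 5′ to 3′ on the gene's own strand, with each CG in capitals. CEBPE lies on the minus strand, and its stretch is chr14:23119206-23119505. LCP1, also on the minus strand, has chr13:46182128-46182427.
CEBPE: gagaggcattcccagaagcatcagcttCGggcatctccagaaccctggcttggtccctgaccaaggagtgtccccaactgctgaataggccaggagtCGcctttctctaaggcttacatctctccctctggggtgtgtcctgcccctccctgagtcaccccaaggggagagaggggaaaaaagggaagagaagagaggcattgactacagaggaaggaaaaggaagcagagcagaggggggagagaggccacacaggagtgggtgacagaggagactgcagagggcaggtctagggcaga
LCP1: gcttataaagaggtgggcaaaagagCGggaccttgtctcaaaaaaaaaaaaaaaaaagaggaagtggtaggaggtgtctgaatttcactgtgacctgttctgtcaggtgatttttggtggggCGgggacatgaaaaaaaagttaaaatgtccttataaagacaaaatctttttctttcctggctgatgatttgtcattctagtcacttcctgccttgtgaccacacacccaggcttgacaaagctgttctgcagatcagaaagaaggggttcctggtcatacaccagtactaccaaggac
Both stretches hold 2 CG. Over the 14228 measured genes with a RefSeq promoter the median was 23, and 74.5% had at least 10 (counted on either strand, since CG reads the same on both). Of the 20 largest increases 17 had a promoter in the table, and 64.7% of these had at least 10. For the 20 largest decreases the share was 76.5%, also of 17, and for all 3238 called genes with a promoter it was 88.7%, against 91.2% of 9051 expressed genes. Large decreases were found at both kinds of promoter: PUDP and ULK2 each had 45 CG, PXDN 42 and CD99 33, while STS had 6. No methylation was measured in the series.

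Genes of synapses and neurotransmitter signalling gave 3 of the largest increases. LRRC7, which encodes densin, a scaffold of the postsynaptic density, read 4.49, 4.80 and 4.39 in WT and 7.82, 7.91 and 7.82 in the mutant line, 9.77-fold apart (8.27 to 11.5, adjusted p = 8.82e-09). SYT1, the calcium sensor of synaptic vesicle release, went from 5.04, 5.13 and 5.01 to 7.91, 7.67 and 8.0, a 6.97-fold difference. CHRM3, a muscarinic acetylcholine receptor that signals through calcium, had 5.10, 4.81 and 4.43 against 7.20, 7.05 and 7.04, a 4.98-fold difference. In all of these the WT levels were below 6.39, the median of all probe sets, on every array and the mutant levels above it. Few of their relatives were called. Of the other synaptotagmins SYT11 and SYT17 were lower, at 0.740 and 0.709 times the WT level, and SYT2 to SYT10, SYT12 to SYT16, CHRM1, CHRM2, CHRM4 and CHRM5 were not called. LIN7A, a partner of postsynaptic and polarity scaffolds, was 3.33-fold higher, from 5.78, 5.91 and 6.15 to 7.81, 7.50 and 7.74. Over the 35 measured genes of vesicles and release 3 were higher and 5 lower, among them SYP (0.580 times WT), RIMS2 (0.600) and SV2A (0.688), with a list median of -0.03. Of 41 postsynaptic scaffold and ionotropic receptor genes 2 were higher (LRRC7, and HOMER1 at 1.5-fold) and 5 lower, and the median was 0.01. The shares called, 22.9% and 17.1%, are near the 21.4% of all genes.

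Voltage-gated channel genes were called lower more often than higher: of 39 measured, 3 were higher and 9 lower, with a median of -0.02. Potassium channel genes gave KCNMA1 (0.557 times WT), KCNA3 (0.618), KCNA6 (0.689), KCNB2 (0.707) and KCNQ5 (0.853), sodium channels SCN8A (0.643), and calcium channels CACNA1C (0.684), CACNA1D (0.702) and CACNA1H (0.710). KCND2, an A-type potassium channel, was 1.80-fold higher, SCN9A 1.38-fold and KCNC4 1.38-fold. The share called was 30.8%. After induction 11 of these 12 were called in the same direction.

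Glycosyltransferase genes changed in both directions. B3GALT1, which adds galactose in a beta-1,3 linkage, read 4.32, 4.51 and 4.44 in WT and 6.82, 6.65 and 6.87 in the mutant line, 5.12-fold apart (4.51 to 5.82). GALNT13, one of the enzymes that start mucin-type O-glycans, read 4.82, 5.25 and 5.07 against 7.20, 7.26 and 7.25, a 4.56-fold difference (3.85 to 5.41). Neither gene's levels overlapped between lines. B3GALNT1, the globoside synthase, went the other way, from 6.76, 7.18 and 7.11 to 5.14, 5.56 and 5.27, 0.310 times the WT level. Of 36 measured genes of mucin-type O-glycosylation and galactosyl transfer 7 were higher and 6 lower, with a median of 0.05. The share called was 36.1%, against 21.4% of all genes. The higher ones included GALNT3 (1.33-fold), GALNT2 (1.29-fold) and B4GALT1 (1.28-fold), the lower ones GALNT12 (0.603 times WT), B4GALT6 (0.621) and GALNT16 (0.746). ST8SIA4, which builds polysialic acid, was 2.30-fold higher, from 4.30, 4.71 and 4.57 to 5.46, 5.75 and 5.97. NCAM1, the main carrier of polysialic acid, was 2.36-fold higher as well (6.88, 7.09 and 7.06 against 8.27, 8.29 and 8.20). Both lie in chromosome stretches whose genes were higher together, on chromosomes 5 and 11.

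Receptors and signalling proteins followed. GHR, the growth hormone receptor, read 4.87, 5.12 and 5.15 in WT and 7.35, 6.76 and 7.40 in the mutant line, 4.35-fold apart (3.13 to 6.04, adjusted p = 3.02e-05). Its neighbour SELENOP, a selenium transport protein gene, was 2.23-fold higher. SPRY4, a feedback inhibitor of receptor tyrosine kinase signalling, had 5.65, 5.94 and 5.80 against 7.65, 7.64 and 7.66, a 3.60-fold difference. Its relative SPRY2, on chromosome 13, was lower at 0.589 times WT. DOK6, an adaptor downstream of RET, read 4.48, 3.97 and 4.84 against 6.44, 6.34 and 6.41, and TMEFF2, a transmembrane protein with follistatin-like modules, 5.33, 5.12 and 5.58 against 7.26, 7.38 and 7.19. These were 3.91-fold and 3.83-fold differences. IL18, a cytokine of the interleukin-1 family, stayed below the median of all probe sets on all 6 arrays but differed 4.05-fold, from 3.72, 3.65 and 3.35 to 5.43, 5.49 and 5.84. SDHD, a subunit of succinate dehydrogenase encoded beside IL18 on chromosome 11, was higher by 0.88. Of 40 genes for growth hormone and cytokine receptors and their JAK-STAT partners 5 were higher and 9 lower (median -0.10). The share called was 35%, against 21.4% of all genes. LIFR (1.56-fold) and IL6ST (1.54-fold), which form the receptor for leukaemia inhibitory factor, were among the higher ones. LIFR, like GHR, lies in the chromosome 5 stretch described below, whose genes were higher together. Of the 14 calls 4 lie in shifted chromosome stretches, and outside these 2 were higher and 8 lower of 33. IL4R (0.615 times WT), IFNGR2 (0.706), STAT6 (0.765) and IL10RB (0.777) were among the lower ones.

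The ephrin system, which guides cells by contact, had 8 of 21 measured genes higher and 2 lower, a called share of 47.6%, with a median of 0.05. The receptors EPHA5 (5.44, 5.14 and 4.98 against 6.70, 6.65 and 6.72) and EPHA6 (4.58, 4.47 and 4.37 against 5.96, 5.97 and 5.92) were 2.83-fold and 2.78-fold higher, and neither overlapped between lines. EPHA3 was 1.68-fold and EPHA2 1.60-fold higher. Of the ligand genes EFNA5 was 1.37-fold, EFNA3 1.34-fold, EFNA1 1.29-fold and EFNA4 1.20-fold higher, EFNB2 (0.503 times WT) and EFNB1 (0.729) were lower, and EFNA2 and EFNB3 were not called. These genes share their direction with neighbours: EFNA4, EFNA3 and EFNA1 form 1 run of higher genes with ADAM15 on chromosome 1, EFNA5 lies in the higher stretch of chromosome 5, EFNB2 in the lower stretch of chromosome 13, and EFNB1 in a run of 4 lower genes on the X chromosome. EFNB2 read 9.49, 9.48 and 9.57 in WT and 8.48, 8.56 and 8.53 in the mutant line.

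The TGF-beta and BMP pathway, which acts through secreted ligands, serine/threonine kinase receptors and SMAD proteins, had 16 of 49 measured genes higher and 5 lower, and a median of 0.08. The share called was 42.9%, against 21.4% of all genes. The ligand gene BMP2 had 6.75, 6.58 and 6.37 in WT and 8.25, 8.21 and 8.32 in the mutant line, a 3.24-fold difference (2.86 to 3.67, adjusted p = 1.59e-07). TGFB2 was 1.78-fold and INHBE 1.41-fold higher, and BMP7 (0.777 times WT) and TGFB1 (0.833) were lower. Receptor genes split: ACVR1C was 1.77-fold and BMPR1B 1.37-fold higher, while TGFBR1, the type I receptor for TGF-beta, was lower at 0.690 times WT, from 8.76, 8.72 and 8.72 to 8.17, 8.17 and 8.25. Among inhibitors of the pathway NOG, a secreted antagonist that binds BMPs, read 5.89, 5.79 and 5.71 against 6.59, 6.40 and 6.59 (1.66-fold), SMAD7 was 1.45-fold, SMAD6 1.37-fold and BAMBI 1.35-fold higher, and FSTL1 was lower at 0.797 times WT. The targets ID1 and ID3 are counted in this list. With induction 16 of the 21 calls were made again in the same direction, and 19 of the 21 lie outside the shifted chromosome stretches described below (14 higher and 5 lower of 46).

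**Figure D2:**
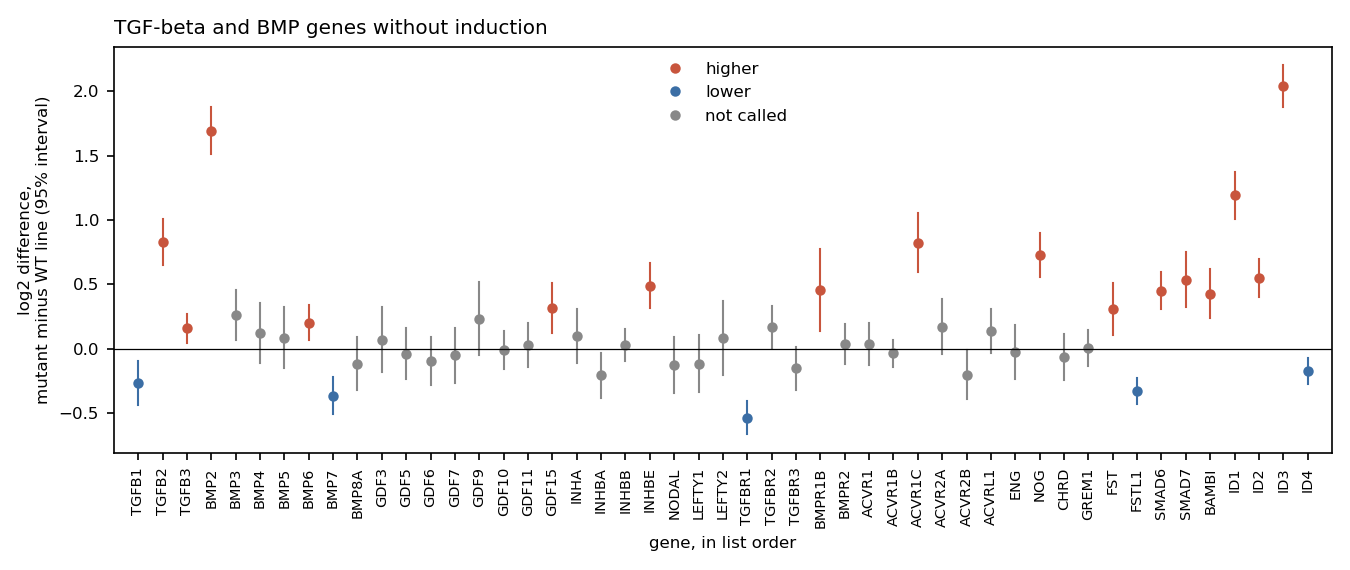
Difference between the lines without induction (vertical axis, log2 RMA, mutant minus WT, 3 arrays each; points are estimates and lines 95% intervals) for the 49 measured TGF-beta and BMP genes, listed along the horizontal axis. The highest points are ID3 at 2.04, BMP2 at 1.70 and ID1 at 1.19, and the lowest is TGFBR1 at -0.53.

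Of 16 measured genes of the SNAI, TWIST and ZEB factors and their mesenchymal companions 7 were higher and 1 lower, a called share of 50%, with a median of 0.15. LOX, which crosslinks collagen, was 1.96-fold higher (7.02, 7.19 and 7.15 against 8.09, 8.04 and 8.14), VIM, the intermediate filament vimentin, 1.56-fold (11.30, 11.26 and 11.26 against 11.95, 11.90 and 11.91), and FN1, fibronectin, was lower at 0.753 times WT. All 8 were called in the same direction on the induced arrays. Among epithelial genes 6 of 19 were higher and 1 lower (a called share of 36.8%, median 0.12), with the keratins KRT19 1.51-fold and KRT8 1.40-fold and the factor KLF4 1.30-fold above WT.

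Blood-cell transcription factors other than CEBPE also differed. In that list, CEBPE included, 8 of 31 genes were higher and 2 lower, a called share of 32.3%, with a median of 0.08. GATA3, a T-cell and kidney-duct factor, read 7.21, 7.28 and 7.22 in WT and 8.69, 8.66 and 8.71 in the mutant line, 2.73-fold apart (2.52 to 2.96). IKZF3, known as Aiolos, was 2.09-fold and MYB 1.54-fold higher, and GFI1, a granulocyte repressor, was lower at 0.746 times WT.

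Cell adhesion genes changed in both directions, some of them strongly. CD99, a small surface glycoprotein encoded in the pseudoautosomal region, read 9.94, 10.17 and 10.21 in WT and 6.28, 5.97 and 6.24 in the mutant line, 0.0649 times the WT level (0.0565 to 0.0746). The genes beside it, P2RY8 and XG, were not called, and its relative CD99L2 was lower at 0.882 times WT. NECTIN3, an adhesion molecule of adherens junctions, went from 5.33, 5.16 and 5.28 to 7.26, 7.09 and 7.37, a 3.96-fold increase, with NECTIN2 at 1.16-fold and NECTIN1 and NECTIN4 not called. LSAMP, a neuronal adhesion molecule, was 2.71-fold and MCAM 2.15-fold higher. JAM2, of endothelial junctions, was lower at 0.426 times WT, from 7.96, 8.07 and 8.03 to 6.82, 6.67 and 6.87. Over 40 immunoglobulin superfamily and related adhesion genes 9 were higher and 7 lower (median 0.01), 40% called against 21.4% of all genes. Of these 16 genes 6 lie in shifted chromosome stretches, among them NCAM1, MCAM, JAM3 and CADM1 on chromosome 11 and JAM2 on chromosome 21.

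NECTIN3 has a partner that changed the opposite way. LOC151760 starts 50 bases away on the other strand, and read 7.65, 7.33 and 7.71 in WT and 6.15, 6.14 and 5.67 in the mutant line, 0.336 times the WT level (0.272 to 0.416, adjusted p = 1.2e-05). The 2 promoter windows share 149 bases at chr3:111071717-111071865, shown here on the plus strand because the opposite changes meet in it, with its 24 CG in capitals (RefSeq, GRCh38.p14).
NECTIN3 and LOC151760: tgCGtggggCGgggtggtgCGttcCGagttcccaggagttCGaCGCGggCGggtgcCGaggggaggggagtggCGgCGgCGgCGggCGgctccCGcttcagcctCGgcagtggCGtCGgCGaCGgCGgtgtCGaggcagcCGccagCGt
Both genes kept their direction on the induced arrays, where NECTIN3 was higher by 2.18 and LOC151760 lower by 1.54. STS and PUDP on the X chromosome also start on opposite strands, 863 bases apart, and both were lower.

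Cadherins gave 5 higher and no lower of 27, led by CDH12 (2.21-fold), a called share of 18.5% that is below the 21.4% of all genes. Among 9 delta protocadherins 4 were higher and 1 lower, a called share of 55.6%. PCDH20 read 4.97, 4.99 and 4.77 against 6.59, 6.64 and 6.62, 3.27-fold apart, although it lies on chromosome 13, where 163 of 316 genes were lower. PCDH19, on the X chromosome, was lower at 0.406 times WT. In the beta protocadherin cluster on chromosome 5, a row of related genes of which 16 were measured, PCDHB5 alone was called. PCDHB5 read 5.90, 6.08 and 6.08 in WT and 4.57, 4.25 and 4.39 in the mutant line, 0.327 times WT. Whether its probes read other genes of the row was not tested. Integrin subunits gave none higher and 4 lower of 25: ITGA9 (0.664 times WT), ITGA8 (0.795), ITGA3 (0.799) and ITGB3 (0.841). Their called share, 16%, is also below that of all genes.

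Actin and polarity proteins held the largest decrease of all. LCP1, which encodes L-plastin, an actin-bundling protein best known from white blood cells and tumour lines, read 11.12, 11.08 and 11.14 in WT and 5.14, 5.22 and 5.42 in the mutant line. The mutant level was 0.0173 times that of WT (0.0156 to 0.0192, adjusted p = 2.41e-13) and lay below the median of all probe sets on every mutant array. Its paralogs PLS1 and PLS3 differed by 0.15 each and were not called. LCP1 lies in the lower stretch of chromosome 13, in a window of neighbours with a median of -0.83. LRRC63 beside it was lower by 0.75, and CPB2 on the other side was not called. AMOT, angiomotin, which joins tight junctions to Hippo signalling, read 9.22, 9.30 and 9.34 against 6.50, 6.21 and 6.29, 0.129 times WT, and its paralogs AMOTL1 and AMOTL2 differed by 0.08 and -0.10 and were not called. ACTBL2, an actin gene rarely used outside tumours, was 4.0-fold higher, from 5.55, 5.61 and 5.78 to 7.68, 7.48 and 7.79. Its sequence is close to that of other actins, and whether its probes read these was not tested. Of 29 actin bundling and crosslinking genes 5 were higher and 2 lower, with ACTN2 1.58-fold, DBN1 1.56-fold and CNN2 1.55-fold above WT. The share called, 24.1%, is near the 21.4% of all genes. HSPB1, a small heat-shock protein that protects actin filaments, was 3.82-fold higher (8.45, 8.26 and 8.25 against 10.14, 10.30 and 10.32).

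Basement membrane genes gave 4 higher and 7 lower of 19, with a median of -0.07. The share called was 57.9%, against 21.4% of all genes. PXDN, peroxidasin, which crosslinks collagen IV, read 7.97, 8.06 and 8.05 in WT and 5.91, 5.94 and 5.86 in the mutant line, 0.229 times the WT level (0.205 to 0.256). SPARC, a collagen-binding glycoprotein, was lower at 0.460 times WT (6.49, 6.85 and 6.71 against 5.56, 5.69 and 5.45), NID2 at 0.621 and FBLN1 at 0.718. Collagen IV chains COL4A1 and COL4A2, a head-to-head pair on chromosome 13, were at 0.704 and 0.729 times WT. MFAP2, a microfibril protein, read 8.49, 8.22 and 8.31 against 6.35, 7.02 and 6.54 (0.307 times WT), although its neighbour ATP13A2 was higher by 0.39. THBS4, a thrombospondin, read 6.92, 7.14 and 7.13 against 5.62, 5.32 and 5.69 (0.348 times WT), and its neighbours MTX3 and SERINC5 on chromosome 5 were each higher by 0.37. COL12A1 was 1.95-fold higher. Of 36 collagen chains 3 were higher and 3 lower (16.7% called), with a median of -0.04.

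**Figure D3:**
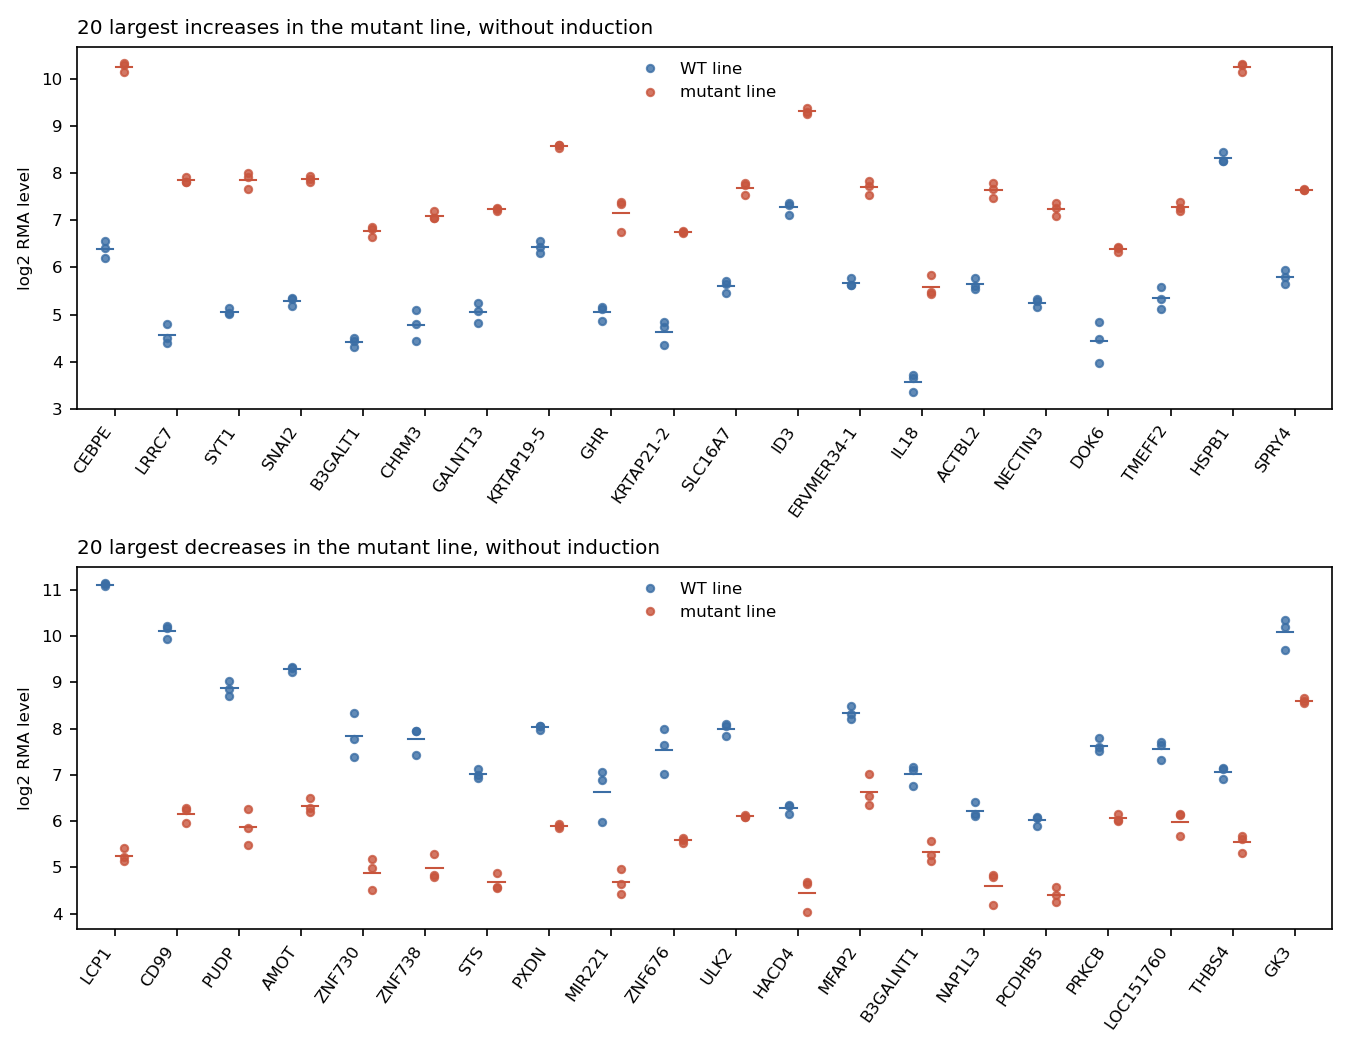
Log2 RMA level (vertical axis) of the 20 genes with the largest increases (top) and the 20 with the largest decreases (bottom) in the mutant line, without induction; each point is 1 array, short lines are means of 3 arrays, blue is the WT line and red the mutant line. The 2 colours do not overlap for any gene drawn, which the choice of genes required, and the widest WT spreads belong to ZNF730, ZNF676 and MIR221.

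Toward the end of the short arm of the X chromosome, CD99, PUDP and STS were each lower by more than 2-fold. PUDP, a pseudouridine phosphatase, read 8.72, 9.04 and 8.86 in WT and 5.84, 6.26 and 5.49 in the mutant line (0.124 times WT, 0.0986 to 0.157). STS, steroid sulfatase, read 7.01, 7.12 and 6.93 against 4.57, 4.88 and 4.59 (0.197 times WT). Their outer neighbours NLGN4X and PNPLA4 were not called. Of 29 measured pseudoautosomal and distal short-arm genes none was higher and 4 were lower, the fourth being TBL1X at 0.794 times WT, a called share of 13.8%, and the list median was -0.02. Other genes that escape X inactivation gave 4 higher and 3 lower of 26, none by as much as 2-fold. Their called share was 26.9%, against 21.4% of all genes.

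Zinc-finger genes of the KRAB type are known for silencing transposable elements. Of 34 measured genes of their cluster at 19p12 none was higher and 12 were lower, a called share of 35.3%, with a median of -0.12. ZNF730 read 7.39, 7.78 and 8.34 in WT and 5.18, 4.50 and 4.98 in the mutant line (0.130 times WT), and ZNF738 7.44, 7.95 and 7.95 against 5.30, 4.84 and 4.80 (0.144). ZNF676 had 7.02, 7.64 and 7.99 against 5.59, 5.64 and 5.53 (0.257), ZNF737 reached 0.400 and ZNF90 0.494 times WT. For each of these the groups did not overlap, and the WT array labelled A was the lowest of the WT arrays. Of the genes beside them, ZNF99 and ZNF724 flank ZNF730, ZNF708 and ZNF493 flank ZNF738, ZNF257 and ZNF729 flank ZNF676, and none of these 6 was called. On the induced arrays 6 of the 12 were called lower again, including ZNF730, ZNF738, ZNF676, ZNF737 and ZNF90. These genes are much alike in sequence, and how far their probes read each other was not tested.

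Kinases and other single genes complete the largest decreases. ULK2, an autophagy kinase, read 7.85, 8.11 and 8.05 in WT and 6.10, 6.10 and 6.13 in the mutant line (0.270 times WT), while its neighbour AKAP10 on chromosome 17 was higher by 0.41. PRKCB, a protein kinase C, had 7.52, 7.61 and 7.79 against 6.02, 6.01 and 6.16 (0.336). HACD4, an enzyme of very long fatty acid synthesis, reached 0.282 and NAP1L3 0.325 times WT. GK3, a retrocopy of the glycerol kinase gene GK, read 9.70, 10.36 and 10.19 against 8.61, 8.67 and 8.55 (0.360), and whether its probes read GK was not tested. In the other direction SLC16A7, a monocarboxylate transporter, was 4.23-fold higher (5.64, 5.72 and 5.47 against 7.79, 7.55 and 7.74) and ERVMER34-1, an envelope gene of an endogenous retrovirus, 4.08-fold (5.62, 5.62 and 5.78 against 7.54, 7.83 and 7.74). The hair-keratin partners KRTAP19-5, KRTAP21-2 and KRTAP19-1 were 4.43-fold, 4.34-fold and 2.88-fold higher, and the other 41 of 44 measured keratin-associated genes on chromosome 21 were not called. PYCR1, which makes proline, was 3.04-fold higher (6.35, 6.11 and 5.90 against 7.72, 7.79 and 7.66).

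Among 173 measured microRNA genes 1 was higher and 6 lower, a called share of 4.05% that is below the 21.4% of all genes. The array reads the hairpin gene or its transcript and not the mature microRNA. MIR221 and MIR222, neighbours on the X chromosome, share a seed, the bases 2 to 8 that pair with targets, and MIR15A lies on chromosome 13. Their mature sequences are shown with the seed in capitals to make the shared seed visible (RefSeq, GRCh38.p14, all on the minus strand, at chrX:45746180-45746202, chrX:45747036-45747056 and chr13:50049167-50049188).
hsa-miR-221-3p: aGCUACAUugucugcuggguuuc
hsa-miR-222-3p: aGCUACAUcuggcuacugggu
hsa-miR-15a-5p: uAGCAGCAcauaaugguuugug
MIR221 read 5.98, 6.88 and 7.06 in WT and 4.63, 4.42 and 4.97 in the mutant line, lower by 1.97 ± 0.28 (SE), at 0.256 times WT. MIR222 read 4.41, 5.19 and 4.99 against 3.81, 4.03 and 3.94, at 0.522 times WT, so neither pair of groups overlapped. MIR15A had 7.97, 8.22 and 8.08 against 7.01, 7.07 and 6.92, at 0.472 times WT. MIR34A, MIRLET7I and MIR124-3 were lower by 0.38, 0.35 and 0.33, and MIR494 was higher by 0.44. With induction MIR221, MIR222 and MIR15A were called lower again and the other 4 were not called. Small nucleolar RNAs gave 28 higher and 7 lower of 175, and their called share of 20% is near that of all genes. Genes classed as small nuclear RNAs gave 8 higher and none lower of 20 (40% called). The 3 vault RNAs on chromosome 5, VTRNA1-1, VTRNA1-2 and VTRNA1-3, were 1.52-fold, 1.34-fold and 1.34-fold higher. Long non-coding RNAs gave 23 higher and 34 lower of 626 (9.11% called). Protein-coding genes gave 1898 higher and 1874 lower of 16894 (22.3% called).

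Differences were also shared by neighbours along the chromosomes. Genes expressed above the median of all probe sets were put in RefSeq order and cut into 557 windows of about 20, and the median difference of a window ranged from -0.83 to 0.69. In 43 windows it was at least 0.25 and in 19 at most -0.25. These 62 windows held 11.2% of the 11154 ordered genes and 28.7% of the called ones. In them 77.8% of genes were called, against 24.3% in the other windows. The windows were chosen by these same differences, so a high called share in them follows from the choice. On the induced arrays all 62 kept their sign and 58 stayed past 0.25 in size. In bulk RNA a lower level in every cell and a loss in some of the cells cannot be told apart, and DNA copy number was not measured in the series.

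Chromosome 13 held the longest lower stretch. From EXOSC8 to CHAMP1, 7 windows in a row had medians of -0.83 to -0.63, and 133 of their 140 genes were lower and none higher. Its longest unbroken run of called neighbours had 12 genes, from MRPS31 to AKAP11, with ELF1, RGCC and VWA8 among them. Chromosome 5 held the longest higher stretch, 19 windows from LIFR to MXD3 with medians of 0.25 to 0.49 and 290 of 380 genes higher against 2 lower. GHR, SELENOP, ACTBL2, PLK2, ST8SIA4, LOX, ERAP1 and SPRY4 lie in that stretch and were higher, and SPARC, THBS4 and PCDHB5 lie in it and were lower. Chromosome 11 had both kinds. From DIXDC1 to JHY, 3 windows reached 0.60 to 0.69 with 54 of 60 genes higher, and from EED to FUT4 1 window was at -0.62 with 15 of 20 lower. The higher stretch contains IL18, SDHD and HYOU1, the last a chaperone gene of the endoplasmic reticulum, within a run of 11 higher neighbours from CENATAC to HINFP.

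Smaller stretches lay on other chromosomes. Chromosome 1 had 10 windows past the bound, all higher. They ran from KCNAB2 to EFHD2 (42 of 60 genes higher), CDA to PHACTR4 (52 of 80) and MRPL55 to FMN2 (40 of 57). ID3 and E2F2 lie between CDA and PHACTR4, and CHRM3 lies between MRPL55 and FMN2. Chromosome 12 was higher from ULK1 to ZNF268 (15 of 19). On chromosome 14 genes from TTC5 to MRPL52 (18 of 21 higher, median 0.39) and from PSME1 to GEMIN2 (29 of 42 higher) stood against genes from SLIRP to ATP5MJ (59 of 80 lower). CEBPE and SLC7A8 lie in the window between the higher stretches, whose median, 0.245, fell just short of the bound. Chromosome 16 was lower from EEF2KMT to SBK1 (62 of 81) and from ZNF843 to CNEP1R1 (17 of 20), and PRKCB lies in the former. Chromosome 17 was higher from EPN2 to ERAL1 (33 of 41, against 1 lower), where ULK2 was lower. Chromosome 21 was lower from BAGE2 to KRTAP19-5 (16 of 21), and chromosome X from APOOL to BEX3 (15 of 20). Of the 20 largest increases 8 lay in a shifted window, and of the 20 largest decreases 6. Outside the shifted windows 1280 of 16294 genes were called higher and 1575 lower. Weaker shared shifts remain there, since the bound leaves them out. On chromosome 2, where window medians went down to -0.22, 49 of 1154 genes were called higher and 198 lower.

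The line difference was measured again on the induced arrays, which share no array with the uninduced ones. They come from the same 2 lines, and their difference also holds any unlike effect of the 2 induced transgenes. On the induced arrays 3979 genes were called, 21.6% of those tested. In both states 2896 were called in the same direction, 73.6% of the calls without and 72.8% of those with induction. Each gene's spread was estimated from the arrays of both states together, so the calls in the states are not independent of each other. With each comparison fitted on its own arrays alone, 3401 genes were called without and 3109 with induction, and 2260 calls were shared. Of the 3934 uninduced calls 3856 had the same sign with induction. Of the 158 genes at least 2-fold apart without induction 157 were called in the same direction, and the induced difference was 0.973 times the uninduced one at the median. CEBPE differed by 3.87 without and 4.38 with induction, LRRC7 by 3.29 and 3.48, LCP1 by -5.86 and -5.65 and CD99 by -3.95 and -4.0. MOG, a myelin glycoprotein gene, was the exception, with 6.08, 7.09 and 6.87 in WT and 7.86, 7.48 and 7.77 in the mutant line, a difference of 1.02 that was 0.01 with induction. Its other probe sets differed by -0.47 and -0.0043 without induction and were not called.

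**Figure D4:**
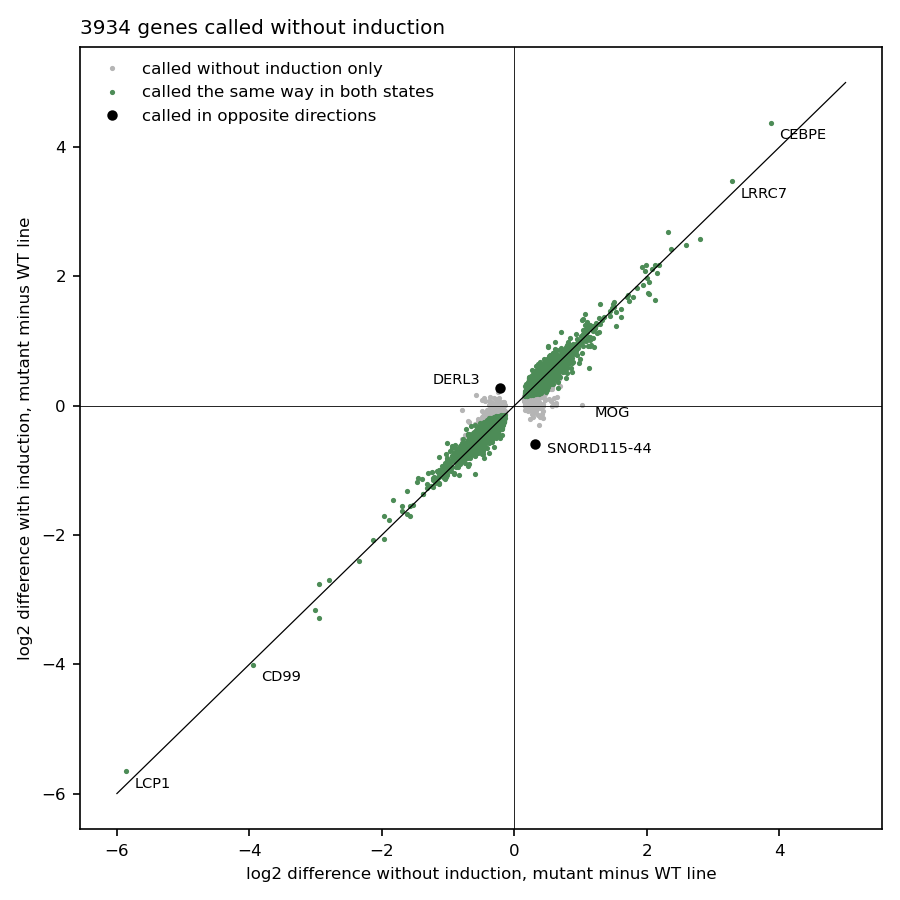
Difference between the lines with induction (vertical axis) against the difference without induction (horizontal axis), log2 RMA, mutant minus WT, for the 3934 genes called without induction; green points were called in the same direction in both states, grey points without induction only, black points in opposite directions, and the line marks equal differences. Green points such as CEBPE, LRRC7, LCP1 and CD99 lie along the line, and the 2 black points are DERL3 and SNORD115-44.

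Whether a line difference changed with induction was tested with limma's interaction term. No gene passed after adjustment, and 774 genes, 4.21%, had an unadjusted p below 0.05. Other settings of the fit gave between 0 and 9 genes. Calls in opposite directions were made for 2 genes: DERL3, which extracts misfolded proteins from the endoplasmic reticulum (-0.22 without and 0.28 with induction), and SNORD115-44, one of many near-identical small nucleolar RNAs of chromosome 15 (0.31 and -0.60). The interaction's adjusted p was 0.185 for each. GRAP, an adaptor gene, differed by -0.79 without and -0.06 with induction, and PRDM9, a meiotic histone methyltransferase gene, by 0.62 and 0.04. ERO1A itself was lower by 0.43 without induction and by 0.13, not called, with it.

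Most markers of other cell types read at or below the median of all probe sets in both lines. Of 10 endothelial markers none was called, and 8 were at or below that median on all 6 arrays, with CLDN5 and EGFL7 above it. Fibroblast markers averaged 4.76 to 4.91 on the WT and 4.99 to 5.05 on the mutant arrays, with 9 of 10 below the median on all arrays and COL1A1 above it. LUM, the proteoglycan lumican, was the 1 called, 3.06-fold higher from 3.59, 3.42 and 3.42 to 5.48, 4.62 and 5.16. Leukocyte markers averaged 5.20 to 5.47 and 5.39 to 5.47, with 7 of 9 below the median and CD68 and NKG7 above it on all arrays. CD68, a lysosomal protein, was 1.69-fold higher. Neuronal markers averaged 6.05 to 6.23 and 5.93 to 6.04, with 5 of 9 below the median and NEFL and SNAP25 above it on all arrays, and SYP and RBFOX3 lower in the mutant line. Of 14 genes characteristic of HEK 293 or expressed in every cell 12 were above the median on all 6 arrays, including PAX2, VIM, KRT18 and INA, and their mean was 9.46 to 9.49 in WT and 9.56 to 9.58 in the mutant line. The part of these marker shifts in the results above was not tested.

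Probe sets without a gene symbol carried fewer differences. With all 32321 probe sets tested together 4152 were called, 12.8%, and of the 11775 without a symbol 469 were higher and 253 lower, 34 of them by at least 2-fold. Called genes had 149 further probe sets that were not used for the call. Of these 127 had the same sign, 54 were called in the same direction and none in the opposite one.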

How the data were processed

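Biotinylated cDNA from 250 ng of RNA per sample was hybridised to Affymetrix gene arrays. The submitters' processing notes name RMA as the source of the deposited log2 values. The base of the logarithm was read from their range of 1.055 to 14.096, and the array build is not given in the sources used here. RMA makes the arrays' distributions alike, so a shift of all genes together would not show. Of 32321 probe sets 19158 carried 1 gene symbol, 1388 several and 11775 none. This gave 18404 genes (18376 matched to RefSeq), with the probe set of highest mean taken for the 637 genes that had several. In R 4.3.3, limma 3.58.1 fitted a group-means model over all 12 arrays, which was tested on simulated data, where it recovered 74 and 94 of 100 genes changed by 0.4 and 0.8 on the log2 scale. Adjusted p-values are limma's, with Benjamini-Hochberg adjustment over all genes, two-sided. Array weights and the replicate letter were tried as alternatives, along with other filters, probe set rules and priors.

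The rule for naming genes took the 20 largest increases and decreases among called genes whose groups do not overlap, up to 3 called members of each gene list per direction, paralogs and chromosomal neighbours of the former, ERO1A, ERO1B and MIR222, and up to 10 genes with the largest interaction. The comparison, its gene lists and the rule were chosen with earlier results of these data known. Other genes named, among them HYOU1, SPRY2, the vault RNAs, MIR15A, genes at the ends of chromosome stretches and further list members, were chosen after their values were seen.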

Additional observations from a re-analysis of the deposited data

How the results depend on the processing

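Of 4972 alternative values for 240 called and named genes, 4620 stayed past the threshold, 352 did not, and none changed sign. Many of the alternatives leave the difference itself unchanged or nearly so, and these genes were chosen as called. The lack of sign changes is therefore no test of direction. Of the named genes given as not called, 18 became called under at least 1 alternative, among them PLS3, C14orf119, PCDHB3, CHRM2, CHRM4, SYT7, SYT9, SYT12, FBXO4, YWHAG and ZNF708. The 40 largest differences stayed called in every setting run, with the highest adjusted p, 0.00439 by limma, for MIR221. The count of calls moved most with array weights, to 6643 (3191 higher, 3452 lower, 3904 of the 3934 shared). Leaving out the windows of shifted neighbours, an alternative chosen after seeing the data, tested fewer genes and gave 2598 calls (1176 higher, 1422 lower). A fold minimum of 2 in place of 1.5 left 158 of 637 genes. With a replicate block 3959 genes were called (3703 shared). Without induction the deviations of mutant and WT arrays with the same letter correlated at -0.055, -0.050 and 0.062. Other same-letter pairs lay between -0.031 and 0.262, and in no pair of groups were all 3 above 0.1, so the letters were not taken to pair the samples. Leaving out 1 array at a time gave 2988 to 4016 calls, 1547 to 2033 higher and 1399 to 2005 lower, 634 to 674 past 1.5-fold, 3007 to 4365 with induction, 2386 to 2769 shared between states, and 0 genes for the interaction. The interaction gave 7 genes with dim genes left out, 9 with a trended, robust prior and 4 with array weights; the cause was not tested. The 6 arrays alone gave 3401 calls, and centring each array on its median 3214. Of the called genes 449 were at or below the median of all probe sets in both lines, where signal over background limits what a fold can show. A further limit is that no cells without the transgene were analysed here.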

Other observations

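Single members of several pathways not described above differed between the uninduced lines. The shares called were 26.9% for Notch, 16% for Wnt and 21.4% for receptor tyrosine kinase genes, against 21.4% of all genes. Notch signalling, in which ligands on one cell cut free a receptor fragment in the next, had 4 of 26 measured genes higher and 3 lower: the coactivator MAML2 was 1.48-fold and the ligand JAG1 1.19-fold higher, and the receptors NOTCH3 and NOTCH2 were at 0.836 and 0.872 times the WT level. In the Wnt pathway 4 of 50 were higher and 4 lower. The secreted inhibitors DKK1 (1.34-fold) and DKK2 (1.27-fold) were higher, and the ligands WNT5A (0.789 times WT) and WNT11 (0.807) lower. Receptor tyrosine kinases and their ligands gave 6 higher and 3 lower of 42, with FLT1, a receptor for vascular endothelial growth factor, 1.70-fold and FGF9 1.43-fold higher. Homeobox cluster genes gave 5 higher and 7 lower of 27 (44.4% called), from HOXB6 at 1.36-fold to HOXA2 at 0.687 times WT, and 5 of the 12 were called again with induction.

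Interferon-stimulated genes were divided, with 6 higher and 6 lower of 31 (38.7% called). BST2, which tethers budding viruses, was 1.56-fold and IFI44L 1.53-fold higher, whereas the membrane proteins IFITM3 and IFITM2 were at 0.629 and 0.749 times WT. A list of HLA class I and antigen presentation genes gave 4 higher and none lower of 13 (30.8% called). These were the peptidases ERAP2 (1.73-fold) and ERAP1 (1.27-fold), B2M (1.16-fold) and TAPBP (1.14-fold), and 2 of the calls lie in shifted chromosome windows. Class II genes outside that list did not share the direction. HLA-DPA1 differed by -0.83, HLA-DPB1 by -0.82, HLA-DOA by -0.57 and HLA-DOB by -0.38, while HLA-DMA differed by 0.02. Of steroid enzymes 2 of 28 were higher and 3 lower (17.9% called), with HSD17B4 at 1.44-fold and SRD5A1, a steroid reductase, at 0.741 times WT beside STS. Genes that read at or below the median of all probe sets in WT and above it in the mutant line, at least 2-fold apart, numbered 27, and 20 showed the reverse. The first set held VEGFC, a lymphatic growth factor (2.04-fold), and TFPI, an inhibitor of clotting (2.05-fold), and the reverse set CYP1B1, a steroid and xenobiotic hydroxylase (0.444 times WT). These examples were chosen after their values were seen.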
